A study of Drosophila melanogaster with 4 samples.

Results

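Aminoacyl-tRNA synthetases were followed through 4 two-colour arrays that compared RNA immunoprecipitated with GFP-tagged dASF/SF2, a splicing factor of the SR family, with RNA immunoprecipitated with GFP-NLS. A probe belonged to the family when its single gene symbol in the platform annotation was an amino acid code followed by RS, or was GluProRS. This gave 33 probes for 30 genes, of 15744 probes listed. Symbols ending in -m, which mark the mitochondrial enzymes, made up 14 probes for 14 genes, and the other symbols 19 probes for 16 genes. The annotation, not the values, chose the members.

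The RNA came from Drosophila melanogaster larvae of a cross of GMR with a GFP-dASF/SF2 transgene, or of GMR with GFP-NLS, GFP carrying a nuclear localisation signal, as the control. The GMR driver acts in the developing eye, whereas each extract pooled the dissected front ends of 600 third-instar larvae, so the extracts also held other tissues. The study looked for mRNAs that dASF/SF2 may bind in the developing eye. The dASF/SF2 RNA was labelled with Cy5 on 2 arrays and with Cy3 on the other 2, and each replicate number holds 1 array of either kind, a dye swap, which gives 2 replicates. An array is called Cy5 or Cy3 below after the dye of its dASF/SF2 RNA. Nothing in the labels says that the replicates were separate cultures of larvae, so their spread may be technical.

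Aminoacyl-tRNA synthetases attach each amino acid to its tRNA, the step that supplies the ribosome with charged tRNA. They fall into class I and class II, which have unrelated catalytic folds. In animals several cytosolic synthetases join the scaffold proteins AIMP1, AIMP2 and AIMP3 in a multisynthetase complex. Mitochondria translate their own mRNAs and need charged tRNAs of their own, for which most synthetases are encoded by separate nuclear genes. Some synthetase genes, such as those of GlyRS and LysRS in human, serve both compartments.

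The deposited values are log ratios of the 2 channels of an array, with the base and the numerator unstated. The median of each array was subtracted, and the signs of the Cy3 arrays were turned. With Cy5 as the numerator, a negative turned value means less RNA in the dASF/SF2 precipitate than in the GFP-NLS precipitate. With Cy3 as the numerator, it means more there. If the ratios were already set to run from 1 precipitate to the other, turning leaves a dye effect, and the mean without turning compares the precipitates. The dye-swapped arrays did not settle this: over single-symbol probes, which are not independent replicates, Pearson's r was 0.169 and Spearman's rho 0.152 in replicate 1, against -0.565 and -0.576 in replicate 2. No direction is therefore assigned to a precipitate. An immunoprecipitate compared without its input also cannot tell the abundance of a transcript in the extract from the share of it that was bound. Values on single arrays are listed below in 1 order, namely Cy5 of replicates 1 and 2, then Cy3 of replicates 1 and 2.

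Between 13815 and 15330 probes had a value on an array, and 12847 had a value on all 4 and were tested. Among these were 28 synthetase probes for 26 genes: 17 probes for 15 genes without -m, and 11 probes for 11 genes with -m. The 5 probes left out of the test lacked 1 array each. ArgRS-m, CysRS-m and ValRS-m had no value on the Cy3 array of replicate 1, which had the fewest measured probes, and both probes of ThrRS had none on that of replicate 2.

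The synthetases without -m lay together on the negative side of the turned scale. Of their 17 tested probes, 16 had a negative turned mean, against 48.7% of all tested probes. With the probes of a gene averaged, all 15 genes had a negative mean, and 12 of the 15 were negative on each of the 4 turned arrays. The exceptions, LeuRS, LysRS and TyrRS, were each negative on 3. IleRS is among the 12 only through the average of 2 discordant probes (-0.186, -0.011, -0.018 and -0.009), 1 of them with a positive mean. The median of the 17 probes was -0.145 ± 0.029 (SD over 2 replicates), where the median of all probes was 0.004. On single arrays the median of the 17 ran from -0.188 to -0.081. The -m synthetases showed no common side, with 6 of 11 probes negative and a median of -0.015 ± 0.055.

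**Figure D1:**
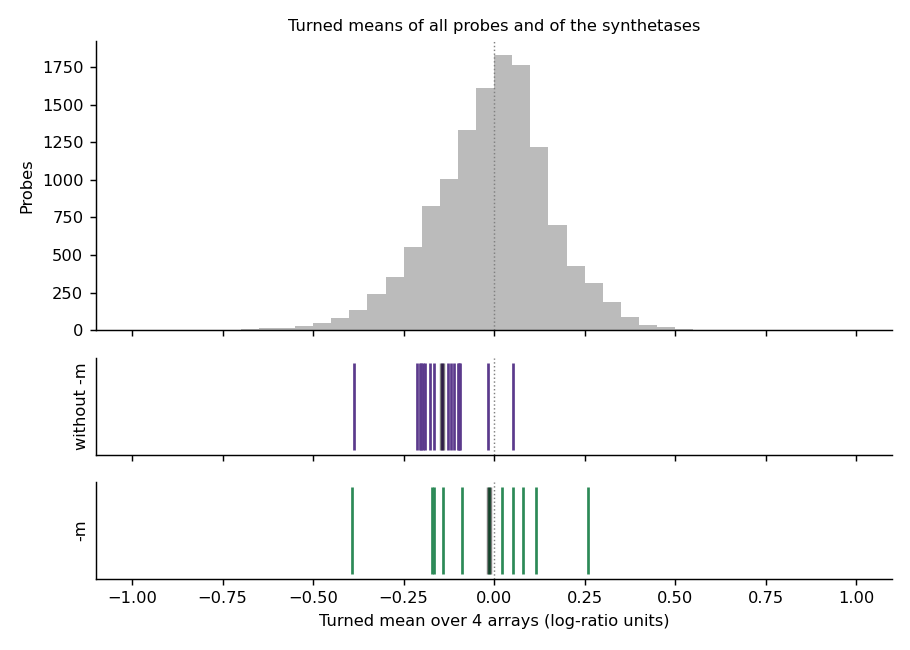
Histogram of the turned means (x axis, log-ratio units) of the 12847 tested probes (y axis, number of probes), above lines for each synthetase probe without -m and with -m; the thick line is the median of each set. The lines without -m gather below 0, around a median of -0.145, and those with -m spread to both sides.

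Single probes did not pass the test. In limma's moderated test with Benjamini-Hochberg adjustment over all probes, 0 of the 28 synthetase probes and 0% of all probes had an adjusted p under 0.05. An unadjusted p under 0.05 was found for 9 synthetase probes, all negative: 8 of the 17 without -m (47.1%) and 1 of the 11 with -m. Among all probes the share was 13.6% on the negative side and 9.57% on the positive side, where no synthetase probe lay. A negative sign on all 4 turned arrays was shared by 13 of the 17 probes without -m (76.5%) and by 2 of the 11 with -m (18.2%), against 16.1% of all probes. A positive sign on all 4 was shared by 0 and 2 probes of these sets, against 12.1% of all probes.

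The glutamine enzyme GlnRS, of class I, had the lowest turned mean without -m. Its values were -0.240, -0.426, -0.405 and -0.474, a mean of -0.386 ± 0.090 (SD, n = 2), and limma's moderated test gave it an adjusted p of 0.117. All 4 arrays lay on the negative side, and the weakest value was the Cy5 array of replicate 1. A fit of all 4 arrays in limma, blocked by replicate, gave GlnRS an adjusted p of 0.0328. That fit, with an estimated correlation within a replicate of -0.408, called 1119 of all 12847 probes (8.71%), so the call does not single GlnRS out. The call also depended on the block, since the same 4 arrays fitted with no block or with a dye term gave 0 calls over all probes.

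The next in order were enzymes of both classes. AsnRS, of class II, had -0.098, -0.146, -0.178 and -0.433, a mean of -0.214 ± 0.107 (adjusted p = 0.176 in limma). SerRS, also of class II, had -0.321, -0.175, -0.081 and -0.228, and the means of its replicates were nearly equal (-0.201 ± 0.0004). ValRS, of class I, had -0.277, -0.263, -0.072 and -0.175, a mean of -0.197 ± 0.032. These 3 genes were negative on every array, and AsnRS rested most on the Cy3 array of replicate 2, without which its mean was -0.142.

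LeuRS, which in yeast and mammals also serves as a sensor of leucine, was the exception among the lowest means. Its values were 0.123, -0.210, -0.454 and -0.279, a mean of -0.205 ± 0.056 (adjusted p = 0.170 in limma). The Cy5 array of replicate 1 was on the positive side. Without that array the mean was -0.349, and without the Cy3 array of replicate 1 it was -0.061.

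HisRS, of class II, had -0.287, -0.144, -0.018 and -0.312, a mean of -0.190 ± 0.053. ArgRS, of class I, had -0.079, -0.093, -0.190 and -0.345, a mean of -0.177 ± 0.060. Both were negative on every array with unequal sizes: HisRS was at -0.123 without the Cy5 array of replicate 1, and ArgRS at -0.114 without the Cy3 array of replicate 2. CysRS, of class I, had -0.155, -0.210, -0.075 and -0.141, a mean of -0.145 ± 0.043, with less spread between arrays.

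A group of smaller means followed, negative on all 4 arrays. GlyRS, of class II, had -0.127, -0.105, -0.005 and -0.236 (mean -0.118 ± 0.074). GluProRS, which joins the glutamate and proline activities in 1 polypeptide, had -0.056, -0.025, -0.131 and -0.188 (mean -0.10 ± 0.009), and was at -0.059 without the Cy3 array of replicate 2. AlaRS, of class II, had -0.065, -0.083, -0.069 and -0.171 (mean -0.097 ± 0.042). In limma's test these 3 stayed above an unadjusted p of 0.05, and neighbours in this order differed by less than the larger of their SDs.

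TyrRS and LysRS were the least uniform. TyrRS, of class I, had -0.159, -0.026, 0.082 and -0.346, a mean of -0.112 ± 0.104. LysRS, of class II, had 0.204, -0.029, -0.151 and -0.094, a mean of -0.018 ± 0.062. The sign of LysRS followed single arrays, since its mean was 0.071 without the Cy3 array of replicate 1. TyrRS was at -0.032 without the Cy3 array of replicate 2.

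The genes with more than 1 probe showed how far probes of a gene could differ. The probes of TrpRS, of class I, agreed in sign on every array, with means of -0.126 ± 0.034 and -0.095 ± 0.016. Those of IleRS did not. One had -0.242, -0.170, -0.088 and -0.161 (mean -0.165 ± 0.0004), while the other had -0.131, 0.149, 0.052 and 0.143 (mean 0.053 ± 0.131) and was the only tested probe without -m on the positive side. The value of IleRS is therefore uncertain. The probes of ThrRS, outside the test, were alike: -0.017, 0.049 and 0.246 for one, and -0.044, 0.091 and 0.247 for the other, on the 3 arrays they had. ThrRS thus lay on the positive side on 2 of its 3 arrays, and the count of 15 negative genes does not include it.

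**Figure D2:**
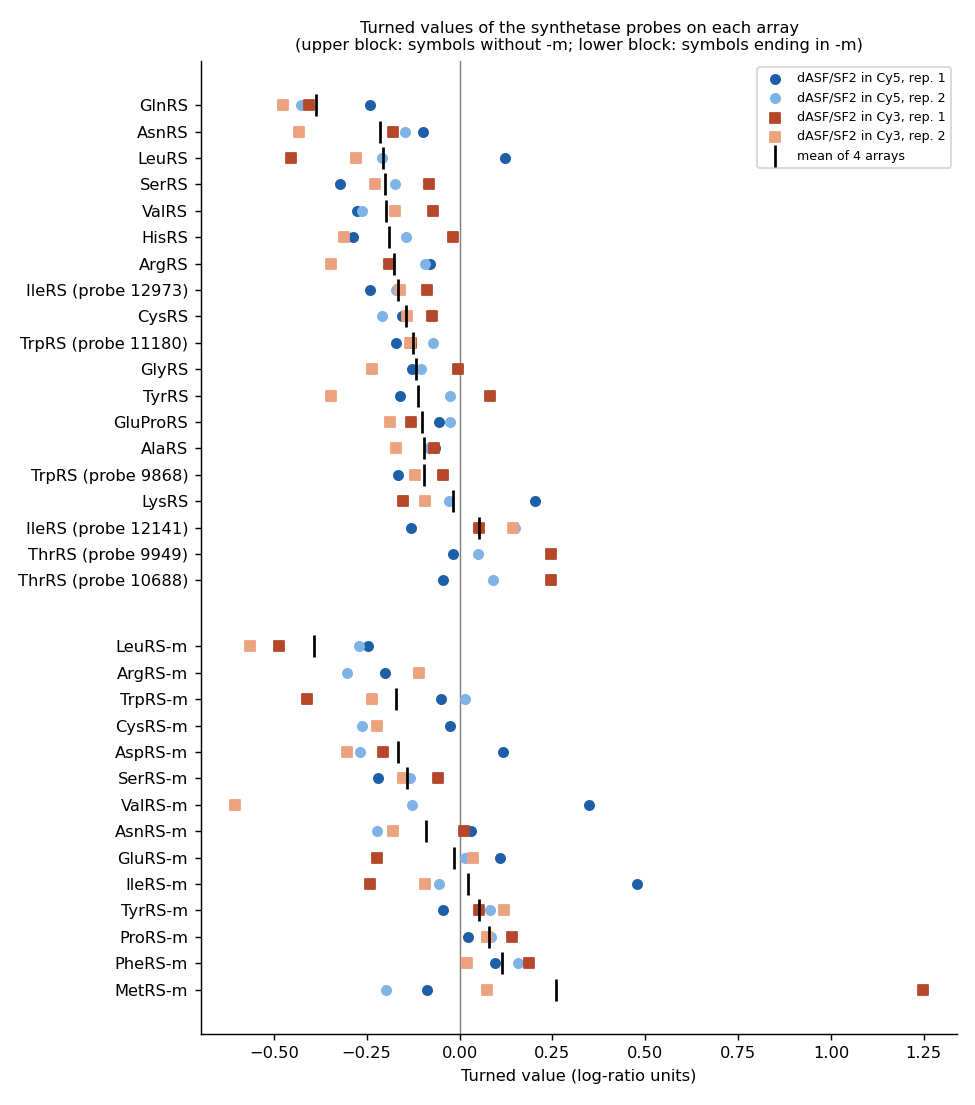
Turned value (x axis, log-ratio units) of each of the 33 synthetase probes (y axis) on each of the 4 arrays; circles are Cy5 arrays, squares Cy3 arrays, and black bars the mean of probes with all 4 arrays. The probes without -m lie mostly left of 0 on every array, and MetRS-m has 1 array at 1.248.

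Of the mitochondrial enzymes, LeuRS-m stood lowest and was close to GlnRS. Its values were -0.247, -0.270, -0.487 and -0.565, a mean of -0.392 ± 0.036 (adjusted p = 0.117 in limma). All 4 arrays were negative, and the Cy3 arrays were further from 0 in both replicates. Blocked by replicate, the limma fit gave LeuRS-m an adjusted p of 0.0332, and GlnRS and LeuRS-m were the 2 of 28 synthetase probes called in that fit (7.14%), no larger a share than the 8.71% of all probes.

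SerRS-m was the other mitochondrial enzyme that was negative on every array. It had -0.220, -0.133, -0.057 and -0.152, a mean of -0.141 ± 0.003. TrpRS-m had -0.049, 0.014, -0.411 and -0.236 (mean -0.171 ± 0.084), and AspRS-m had 0.117, -0.269, -0.205 and -0.304 (mean -0.165 ± 0.172). Each of these 2 genes was positive on 1 Cy5 array, and each was nearer to 0 without the Cy3 array of replicate 1, to -0.080 and -0.085.

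AsnRS-m had 0.032, -0.221, 0.011 and -0.179, so that its sign followed the replicate and not the dye (mean -0.089 ± 0.157). GluRS-m had 0.110, 0.016, -0.222 and 0.035 (mean -0.015 ± 0.058). IleRS-m had 0.478, -0.054, -0.240 and -0.094, and its mean of 0.023 ± 0.137 rested on the Cy5 array of replicate 1, without which it was -0.157. The mean of GluRS-m likewise changed sign, to 0.068, without the Cy3 array of replicate 1.

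PheRS-m and ProRS-m were the 2 synthetases that were positive on all 4 turned arrays. PheRS-m had 0.096, 0.157, 0.188 and 0.021, a mean of 0.116 ± 0.038 (adjusted p = 0.359 in limma). ProRS-m had 0.022, 0.084, 0.140 and 0.075, a mean of 0.080 ± 0.001 (adjusted p = 0.505 in limma). TyrRS-m had -0.045, 0.083, 0.053 and 0.120 (mean 0.053 ± 0.069), positive on 3. Without the Cy3 array of replicate 1, ProRS-m was at 0.051 and TyrRS-m at 0.028.

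MetRS-m had the highest mean of all synthetases, from 1 array. Its values were -0.087, -0.197, 1.248 and 0.074, a mean of 0.260 ± 0.454. Without the Cy3 array of replicate 1 the mean was -0.074. Before turning, MetRS-m was negative on all 4 arrays.

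The mitochondrial probes outside the test were mostly negative on the 3 arrays they had (Cy5 of replicates 1 and 2, Cy3 of replicate 2). ArgRS-m had -0.201, -0.302 and -0.110, and CysRS-m had -0.027, -0.262 and -0.222. ValRS-m went from 0.349 to -0.127 and -0.604, the widest spread among these 3 genes.

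The median of the -m probes lay above that of the other synthetases on each turned array, by 0.177, 0.051, 0.024 and 0.094. By replicate the difference was 0.139 and 0.102, and on the means over arrays it was 0.130. Members are not replicates, and sign changes of 4 arrays or 2 replicates could not give a p below 0.125 or 0.5, so the difference was not tested. It depended on which probes were counted: without MetRS-m it was 0.093 and was -0.050 on the Cy3 array of replicate 1, and with the 5 incompletely measured probes added it was 0.074. It also depended on single arrays, being 0.025 without the Cy5 array of replicate 1 and 0.072 without the Cy3 array of replicate 1. The ranges of the 2 sets overlapped, from -0.386 to 0.053 without -m and from -0.392 to 0.260 with -m.

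Probes also differed in how well their arrays agreed. The median range over the 4 turned arrays was 0.234 for the probes without -m, 0.318 for those with -m and 0.345 for all probes. The median SD between replicates was 0.053, 0.069 and 0.077 in the same order. Spot intensities were not analysed here, so the part of signal strength in these ranges was not tested.

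Amino acids with an enzyme in each compartment allow a comparison of the 2 forms. Of 11 such pairs, 8 had values on all 4 arrays, and the -m gene had the higher turned mean in 6. It was higher on every array in 2 pairs: ProRS-m exceeded GluProRS by 0.180 and SerRS-m exceeded SerRS by 0.061. It was lower on every array in 1, LeuRS-m against LeuRS, with a difference of -0.187. TyrRS-m exceeded TyrRS by 0.165, AsnRS-m exceeded AsnRS by 0.125 and GluRS-m exceeded GluProRS by 0.085, each on 3 of 4 arrays. The differences for IleRS-m (0.079) and TrpRS-m (-0.060) had mixed signs, and that for IleRS-m was positive on 1 array alone. The value of IleRS used here averaged probes with means of -0.165 and 0.053. GluProRS was the partner of both GluRS-m and ProRS-m, so those pairs share its values. TyrRS and GluRS-m are neighbouring protein-coding genes in RefSeq's annotation (Release 6 of the fly genome), and their values had opposite signs on all 4 turned arrays.

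**Figure D3:**
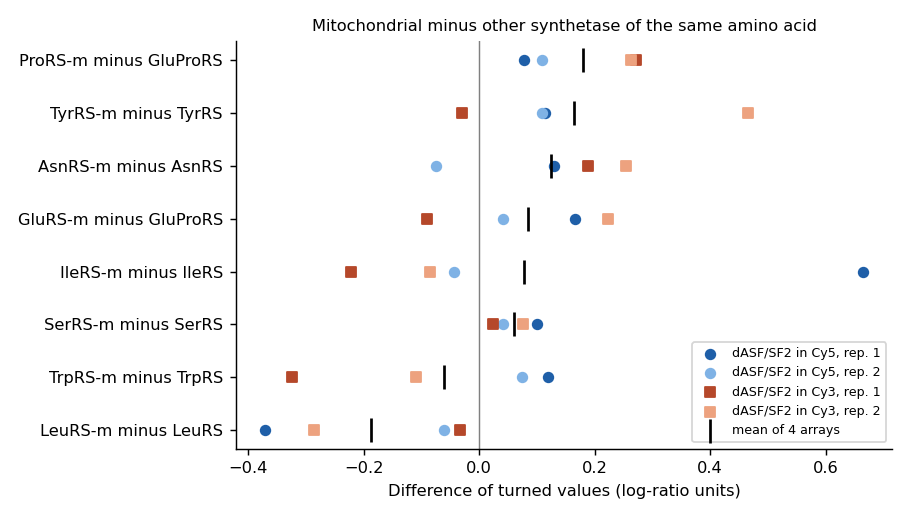
Difference of turned values (x axis, log-ratio units), -m gene minus the other synthetase of the same amino acid, for the 8 pairs measured on all 4 arrays; circles are Cy5 arrays, squares Cy3 arrays, and bars the mean. Pairs lie on both sides of 0, from -0.187 for LeuRS-m to 0.180 for ProRS-m.

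Neither catalytic class nor membership of the multisynthetase complex separated the synthetases without -m. The median turned mean was -0.155 for 10 probes of class I and -0.154 for 6 of class II, with GluProRS, which holds both, left out. The 7 probes of synthetases known to join the complex in animals (GluProRS, IleRS, LeuRS, GlnRS, LysRS and ArgRS) had a median of -0.165, and the 10 probes outside it -0.136. The members of the complex held both the lowest gene, GlnRS, and LysRS, the one nearest to 0. These differences are smaller than the range within each set and were not tested.

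Values before turning showed how the signs of the members went with the dye orientation, which a precipitate difference or a dye effect could give. On average over the arrays of an orientation, 15 of the 17 probes without -m were below 0 with dASF/SF2 in Cy5 and above 0 with dASF/SF2 in Cy3 (88.2%), against 30.2% of all probes. The exceptions were LysRS, above 0 in both, and the deviating probe of IleRS. Of the 11 probes with -m, 5 had that pattern, 3 the opposite one, 2 were above 0 in both orientations and MetRS-m was below 0 in both. Among all probes 27.6% had the opposite pattern, 21.6% were above 0 in both and 20.3% below 0 in both. These counts rearrange the turned values by orientation and are not separate evidence.

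**Figure D4:**
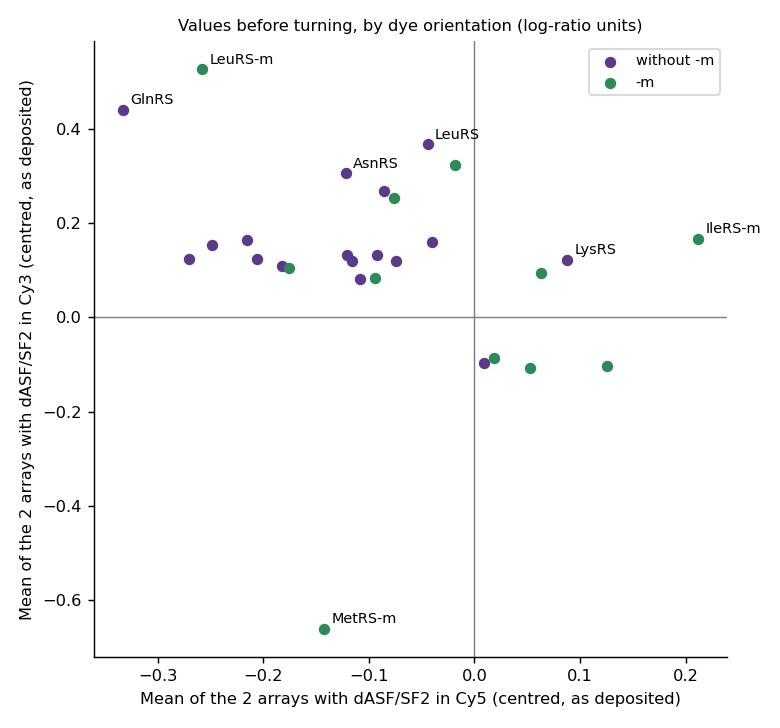
Mean of the 2 Cy3 arrays (y axis) against the mean of the 2 Cy5 arrays (x axis), both centred and before turning (log-ratio units), for the 28 synthetase probes measured on all 4 arrays. Of the 17 probes without -m, 15 lie at the upper left, where the sign followed the dye orientation.

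Read as ratios of 1 sample to the other, the arrays gave the synthetases no common side. Without turning, the median was 0.005 ± 0.053 for the probes without -m and 0.011 ± 0.001 for those with -m, and 12 of the 28 probes were negative, against 46.8% of all probes. An adjusted p under 0.05 was found for 0 of the 28 and 0% of all probes in limma's moderated test. MetRS-m, at -0.402 ± 0.376, was the 1 synthetase probe with an unadjusted p under 0.05 (0.0404), on the negative side, where 3.44% of all probes were, and none of the 28 was among the 2.13% on the positive side. It was also the 1 probe negative on all 4 unturned arrays, against 6.45% of all probes, and 0 were positive on all 4, against 7.15%.

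Enzymes and scaffolds that work with the synthetases were read from a list of partners. The subunits of cytosolic PheRS, which fell outside the naming rule, were both on the negative side: alpha-PheRS had -0.101, -0.262, -0.345 and -0.341 (mean -0.262 ± 0.056, adjusted p = 0.127 in limma), and beta-PheRS had 0.016, -0.028, -0.095 and -0.152 (mean -0.065 ± 0.036). The scaffolds of the complex were nearer to 0, with AIMP2 at 0.059 ± 0.024 and AIMP3 at -0.015 ± 0.047. AIMP1 had 0.130, -0.184 and -0.057 on the 3 arrays it had. GatB, a subunit of the amidotransferase that makes mitochondrial glutaminyl-tRNA, had 0.299, 0.222, -0.195 and 0.448 (mean 0.194 ± 0.200), and GatA had 0.332, 0.051 and -0.289 on 3 arrays. Of the 5 partners tested, 3 were negative and 0 passed the threshold. An unadjusted p under 0.05 in limma was found for 1, alpha-PheRS, on the negative side, where 13.6% of all probes were.

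Cytosolic elongation factors, which take charged tRNA to the ribosome or act beside it, had means on the same side as most synthetases without -m. All 5 tested probes, for 4 genes, had a negative mean, against 48.7% of all probes, with a median of -0.101. They were eEF1gamma at -0.149 ± 0.036, the probes of eEF1delta at -0.127 ± 0.054 and -0.101 ± 0.052, eEF1alpha2 at -0.087 ± 0.087 and eEF5 at -0.071 ± 0.034, of which eEF1gamma was negative on all 4 arrays. That sign on all 4 was thus held by 1 of the 5 probes, against 16.1% of all probes, and on each Cy5 array 3 of the 5 were negative. No probe of the list had an unadjusted p under 0.05 in limma, where 13.6% of all probes had one on the negative side.

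Mitochondrial translation factors were divided by the sign of the mean, with 5 of 8 negative and a median of -0.020. On all 4 arrays 3 of the 8 were negative and 0 positive, against 16.1% and 12.1% of all probes. At an unadjusted p under 0.05 in limma, 2 were negative and 0 positive, against 13.6% and 9.57%. The elongation factor genes mEFG1 and mEFTs had -0.268 ± 0.038 and -0.266 ± 0.013, were negative on all 4 arrays and had adjusted p-values of 0.125 each in limma. The release factor gene mRF1 had -0.187 ± 0.136 and was also negative on all 4, and mEFTu1 had -0.040 ± 0.146. The initiation factor genes mIF2 and mIF3 were at 0.049 ± 0.103 and -0.0002 ± 0.0237, mEFTu2 at 0.071 ± 0.040 and mRRF1, a ribosome recycling factor, at 0.006 ± 0.030.

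Genes of tRNA processing and modification had 11 of 14 probes negative and a median of -0.130. At an unadjusted p under 0.05 in limma, 3 of the 14 were negative and 1 positive, against 13.6% and 9.57% of all probes. Trf, a TBP-related factor of RNA polymerase III transcription, stood apart with 0.483, 0.577, 0.187 and 0.746 (mean 0.498 ± 0.231). RtcB, the tRNA ligase, was at -0.326 ± 0.062, and La, which binds the ends of RNA polymerase III transcripts, was at -0.187 ± 0.116. Genes of amino acid sensing had 8 of 9 probes negative and a median of -0.123. Of the 9 probes, 3 had an unadjusted p under 0.05 in limma, all negative, against the same 13.6%. Gcn2, the kinase activated by uncharged tRNA, had -0.400, -0.438, -0.133 and -0.532 (mean -0.376 ± 0.155). Nprl2 and raptor, of the TOR pathway, were at -0.226 ± 0.122 and -0.210 ± 0.150. No probe of either list passed the adjusted threshold in limma.

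Ribosomal proteins were close to evenly divided by the sign of the mean. Of 43 cytosolic ribosomal protein probes 22 were negative (median -0.003), and of 69 mitochondrial ones 33 were (median 0.005). An unadjusted p under 0.05 in limma was less even. It held for 6 negative and 1 positive cytosolic probes, and for 3 negative and 11 positive mitochondrial ones. Among all probes the shares were 13.6% negative and 9.57% positive. One sign on all 4 arrays was negative for 9 and positive for 3 cytosolic probes, and for 3 and 12 mitochondrial ones, against 16.1% and 12.1% of all probes. All these lists come from the same 4 arrays and were chosen with earlier results of the data known, so they are given side by side and not as separate evidence.

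**Figure D5:**
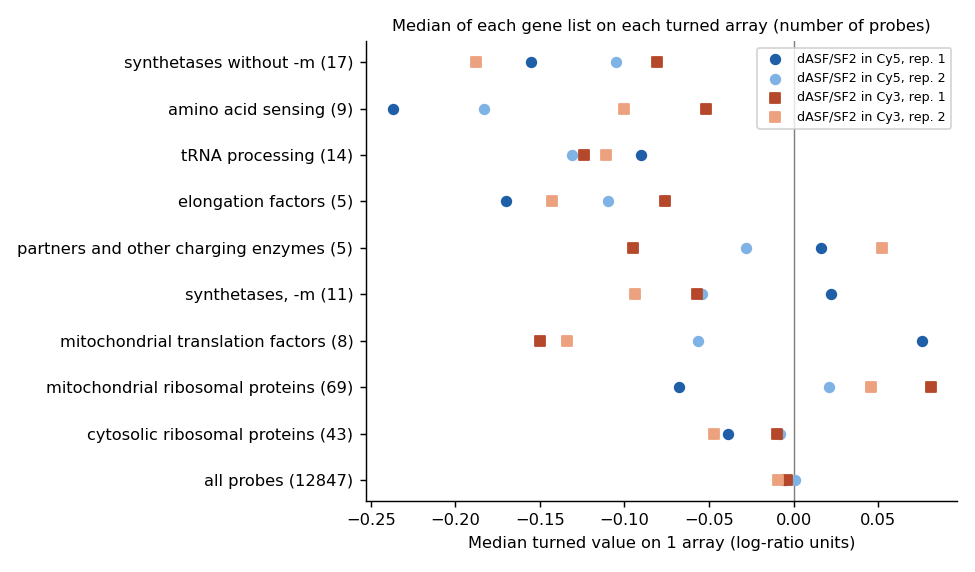
Median turned value of each gene list (y axis, with its number of tested probes) on each of the 4 arrays (x axis, log-ratio units); circles are Cy5 arrays and squares Cy3 arrays. The synthetases without -m, amino acid sensing, tRNA processing and elongation factors are below 0 on all 4 arrays, cytosolic ribosomal proteins are slightly below 0 on all 4, and the -m synthetases are below 0 on 3.

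Markers of tissues in the anterior larva had values on these arrays too, and no marker probe passed the adjusted threshold in limma. All 3 fat body probes were negative (median -0.186, from -0.276 to -0.091 on single arrays). So were 5 of 6 muscle probes (median -0.106), although the muscle median ran from -0.291 to 0.095 on single arrays and 1 probe kept its sign on all 4. Of the 6 glial probes 4 were positive (median 0.302, from 0.039 to 0.327 on single arrays). Eye disc markers had 4 of 9 negative (median 0.022), salivary gland markers 6 of 9 (median -0.019) and haemocyte markers 4 of 6 (median -0.064). No cuticle marker was measured on all 4 arrays. An unadjusted p under 0.05 in limma was found for 2 fat body and 2 muscle probes, all negative, and for 4 glial probes, all positive. It held for 1 negative and 2 positive eye disc probes, 3 and 2 salivary gland probes, and 0 and 2 haemocyte probes. Among all probes the shares were 13.6% negative and 9.57% positive. Log ratios carry no level, so whether the eye disc markers were present could not be read. The part of tissue content in the values of the synthetases was not tested.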

How the data were processed

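The authors deposited 1 log ratio per probe and array (the deposited unit is otherwise unstated). How they corrected background and normalised is not given in the sources used here. Most missing cells had no value as deposited, and those holding -10000, 73 in all, were read as missing too. Column medians lay between 0 and 0.013, so the arrays appeared to be centred already. The Cy3 array of replicate 2 had 811 exact zeros, against 0 to 35 on the others. It also had the widest spread (SD 0.342, against 0.247 to 0.269). Without that array the median of the synthetases without -m was -0.111. The number of arrays limits the precision. Gene names are those of GEO's platform annotation, and all 30 synthetase genes matched RefSeq by Entrez identifier with no change of symbol. AspRS, MetRS and AlaRS-m had no probe under the rule and were not analysed here.

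Array medians were subtracted, the Cy3 arrays were turned, and the dye-swapped arrays of a replicate were averaged. The pairing comes from the series' design text. Deviations of same-numbered arrays from the means of their orientation correlated at -0.339 across probes. Such deviations partly cancel in the mean of a replicate, so the SDs over replicates can understate the spread between arrays. Limma 3.58.1 in R 4.3.3 tested the replicate means (n = 2) against 0 (lmFit, eBayes, Benjamini-Hochberg over 12847 probes, threshold 0.05), and the script was tested on simulated data. The same was done without turning. Alternatives changed the centring, the scale of the arrays, the missing values, the unit tested, the block and the arrays used. Every synthetase of the rule was named, and other genes came from fixed lists. The members, lists and tests were chosen with earlier results of these data known. Python 3.11.15 and matplotlib 3.10.9 drew the figures.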

Additional observations from a re-analysis of the deposited data

Results flagged for a closer look

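MetRS-m, the mitochondrial methionine enzyme, was the 1 synthetase probe whose turned values were negative on both Cy5 arrays (-0.087 and -0.197) and positive on both Cy3 arrays (1.248 and 0.074), a difference of 0.803 between the means of the orientations. This difference was not tested. It rests mostly on the Cy3 array of replicate 1.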

How the results depend on the processing

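With the replicate number as a block (paired arrays), limma called 1119 probes, 2 of them synthetases, with an estimated correlation within a block of -0.408, and 0 without turning. Reading exact zeros as missing, or testing 1 value per gene, gave 3 calls each over the whole table, 0 of them synthetases. With replicates crossed between orientations, chosen after seeing the data, 0 probes were called turned and 153 not turned, 0 of them synthetases. The difference between the -m median and the other median was 0.074 with probes that needed 1 array in each replicate, and 0.093 without MetRS-m, chosen after seeing the data. With the arrays not turned, 12 synthetase probes were negative, the median without -m was 0.005 and the difference 0.006. Leaving out 1 array gave 0 to 184 calls over the whole table (184 without the Cy5 array of replicate 1, 66 without the Cy3 array of replicate 1) and 0 among the synthetases. With 1 replicate left out no test could be made. Leaving out 1 array or 1 replicate gave 21 to 24 negative synthetase probes, medians of -0.175 to -0.111 without -m and of -0.098 to 0.004 with -m, and differences of 0.025 to 0.152 turned and of -0.025 to 0.073 not turned. The -m median was -0.098 without the Cy5 array of replicate 1 and -0.077 without the Cy3 array of replicate 1, and the difference was then 0.025 and 0.072. The cause was not tested. The other settings (values as deposited, arrays scaled to 1 spread, centring on single-symbol probes, which was also chosen after seeing the data, 4 arrays with no block or with a dye term) kept every count within 1.5 times its value and every median within the SD between replicates. Of the 28 synthetase probes, 18 changed sign when the arrays were not turned, and at most 3 under any other setting. Each fit with 1 array left out takes the remaining array of that replicate as the replicate.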
